A study of Mus musculus with 6 samples.

Results

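The genes described here are 8 regulators and products of the trophectoderm, the outer layer of the blastocyst that gives rise to the placenta: *Tead4*, *Cdx2*, *Gata3*, *Tfap2a*, *Tfap2c*, *Elf5*, *Krt7* and *Plac1*. They were found by name, with earlier results of these data known, and all 8 were found among the 21639 entries of the RNA-Seq table, 6 under these symbols and 2 under the older symbols *Tcfap2a* and *Tcfap2c*. Poly(A) RNA was sequenced from 3 mouse embryonic stem cell (ESC) lines, as ESCs (D0) and as embryoid bodies (EBs) collected on day 3 (D3), which gave 6 conditions of 1 library each. The lines are called WT, AP3 and KD, after the form of H2A.Z they carry or its knockdown. H2A.Z is a variant of histone H2A, and AP3 carries 3 substitutions in its acidic patch, a negatively charged surface of the nucleosome, that turn the residues into those of H2A.

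The labels describe KH2 ESCs, with the strain given as V6.5 (129SvJaexC57BL/6), that were infected with lentivirus carrying a doxycycline-inducible transgene under a CMV promoter. The transgene encoded H2A.Z fused to YFP, either wild type or AP3, and induced cells were sorted for YFP. Hairpins against the untranslated end of the endogenous H2A.Z transcript were also introduced into both transgenic lines, so WT is itself an engineered line and differs from AP3 in the transgene. The study places the knockdown in such inducible lines. Which hairpin each library carried, and from which of the lines the KD cells came and whether a transgene was induced in them, was not given in the sources used here. ESCs were kept in LIF and were plated without feeder fibroblasts for the last passage, while EBs formed on non-adherent plates without LIF. With 1 library for a condition there are no replicates, so no p-value is given, and every ratio compares 2 libraries. All comparisons against WT of the same day share that library.

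Trophectoderm and inner cell mass separate in the morula. In the outer cells the Hippo pathway is inactive, YAP1 and WWTR1 stay in the nucleus, and they bind the DNA-binding factor TEAD4, which is needed for expression of *Cdx2* and *Gata3*. CDX2 represses *Pou5f1* and is required to maintain the trophectoderm, GATA3 and the AP-2 factors TFAP2A and TFAP2C act beside it, and ELF5 stabilises the fate in trophoblast stem cells. KRT7 is a simple epithelial keratin of trophoblast, and PLAC1 is a protein of placental trophoblast. ESCs derive from the inner cell mass and express pluripotency genes, and *Elf5* is known to be silenced in them by promoter methylation. *Tfap2c*, *Tead4* and the keratins are not exclusive to trophoblast.

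The promoter windows of the genes differed in their content of CpG, the dinucleotide at which DNA is methylated and which H2A.Z-marked promoters are often rich in. RefSeq windows on GRCm38.p6, each running from 250 bases before to 50 bases after a transcription start, were found for 6 of the 8 genes. *Tead4* and *Tfap2c* are named only. The ratio of observed to expected CpG was 0.731 at *Cdx2*, 0.710 and 0.621 at both starts of *Tfap2a*, 0.658 at *Gata3* and 0.641 at *Krt7*. It was 0.110 and 0.442 at the starts of *Elf5* and 0.220 and 0.331 at those of *Plac1*. Across all 32851 windows the median was 0.384, and 35.8% reached 0.6. The windows of *Cdx2*, *Gata3*, *Tfap2a* and *Krt7* all lay above that limit, and those of *Elf5* and *Plac1* all lay below it.

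**Figure D1:**
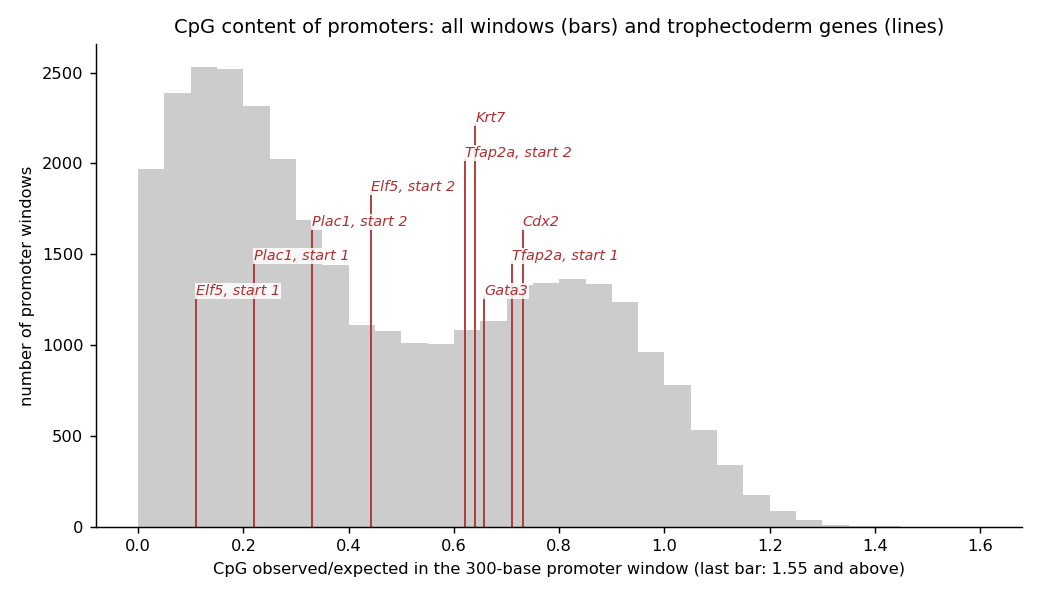
Ratio of observed to expected CpG in 300-base promoter windows: grey bars count all 32851 RefSeq windows (GRCm38.p6) per interval of the ratio, and each red line marks a window of a trophectoderm gene. The lines of *Cdx2* (0.731), *Gata3* (0.658), *Tfap2a* (0.710 and 0.621) and *Krt7* (0.641) stand above 0.6, and those of *Elf5* and *Plac1* stand at or below 0.442.

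Letters matching the core motif of the AP-2 factors, GCCNNNGGC, were found in the windows of *Cdx2*, *Gata3* and *Krt7*. The same letters, read on both strands, occur in 16.6% of all windows. They are printed here because the products of *Tfap2a* and *Tfap2c* are AP-2 factors. Each run reads 5′ to 3′ along the strand of the gene in GRCm38.p6, with the motif in capitals, and positions count from the transcription start. The *Cdx2* match spans -16 to -8 (chr5:147307247-147307275, minus strand). The *Gata3* matches span -246 to -238 (chr2:9878822-9878850), -231 to -223 (chr2:9878813-9878841) and -221 to -213 (chr2:9878803-9878831), all on the minus strand, and the printed runs overlap. The *Krt7* matches span -146 to -138 (chr15:101412247-101412275) and -70 to -62 (chr15:101412323-101412351) on the plus strand.
Cdx2: atcacgtaagGCCGCTGGCctgggactcc
Gata3, match 1: ccctGCCCGCGGCccctctgccctaggcg
Gata3, match 2: cggcccctctGCCCTAGGCggcccttggc
Gata3, match 3: gccctaggcgGCCCTTGGCggcgcccctt
Krt7, match 1: tggacgaagaGCCTTGGGCggcggctggg
Krt7, match 2: gagaaaggtgGCCAGCGGCcagccccgcc

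The other motifs were searched on both strands as well. GGAATG, bound by TEAD factors, occurs in 14.7% of all windows, AGATAA, bound by the GATA family, in 11.2%, TTTATG, bound by CDX factors, in 11.9%, and TATAAA, the core promoter box, in 13.6%. *Elf5*, at its upstream start, held the TEAD letters on the opposite strand at -173 to -168. This run was on the plus strand of chr2:103411914-103411942.
Elf5: ctggaggctgcCATTCCaggaccctgcta
The CDX letters lay at -54 to -49 of *Tfap2a* and at -37 to -32 of the downstream start of *Elf5*, and the GATA letters at -246 to -241 of *Plac1*. None of the windows of these genes held TATAAA. A match describes the letters of the window and is not a bound site.

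Expression values are RPKM, reads per kilobase of transcript scaled to the library total, so levels can be compared between genes as well as between libraries. Changes are log2((RPKM + 0.001)/(RPKM + 0.001)), and a change past 1.5-fold (0.58 on the log2 scale) was counted. The reads behind each value were estimated from the transcript length and an estimated depth of 16.9 to 28.2 M reads per library. The highest estimate, for AP3 ESCs, was 1.67 times that of WT ESCs. Between 11644 and 11802 entries per library reached 1 RPKM. Intervals beside a value are exact 95% intervals that cover counting error only. They leave out differences between cultures, and since no molecular identifiers were used, PCR copies of a molecule may be counted as separate reads.

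The targeted gene, *H2afz*, which encodes H2A.Z, was at 279, 343 and 304 RPKM in the WT, KD and AP3 ESC libraries and at 258, 236 and 394 RPKM in the EB libraries. Its value in the KD-labelled library was thus not below that of WT at D0. Whether transgene reads share this entry was not tested. The libraries are therefore called by their label.

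The 7 ESC markers found (*Pou5f1*, *Sox2*, *Zfp42*, *Klf4*, *Esrrb*, *Tdgf1* and *Utf1*) were all above 1 RPKM in every library, with a summed level of 1203 to 1697 RPKM. The 10 markers listed for trophoblast, which include *Elf5* and *Plac1*, summed to 8.12 to 17.9 RPKM, and *Elf5* was listed at 0 throughout. The 2 that reached 1 RPKM in every library were *Esx1* (3.14 to 10.7 RPKM) and *Eomes* (1.07 to 2.39 RPKM). *Eomes* is not exclusive to trophoblast and is also among the posterior streak and mesoderm markers used below. All 6 libraries thus held ESC markers at levels far above those of trophoblast markers, at D0 and at D3.

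On the RPKM scale the genes were ordered *Tfap2c*, *Tead4*, *Krt7*, *Tfap2a*, *Gata3*, *Cdx2*, *Plac1* and *Elf5* by their median over the 6 libraries, which was 20.3, 9.03, 2.35, 0.778, 0.731, 0.231, 0.172 and 0 RPKM. The ranges of *Tfap2c* (13.5 to 24.7 RPKM) and *Tead4* (5.72 to 15.4) overlapped, as did those of *Tfap2a* (0.309 to 1.12), *Gata3* (0.521 to 0.964), *Plac1* (0 to 0.745) and *Cdx2*, except that *Gata3* stayed above *Cdx2* (0 to 0.515) throughout. *Krt7*, between 1.70 and 4.11 RPKM, overlapped with neither *Tead4* nor *Tfap2a*. Only *Tfap2c*, *Tead4* and *Krt7* reached 1 RPKM in every library, and *Tfap2a* did so in 1. In the whole table *Tfap2c* stood between the percentiles 77.2 and 86.5 of its libraries.

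**Figure D2:**
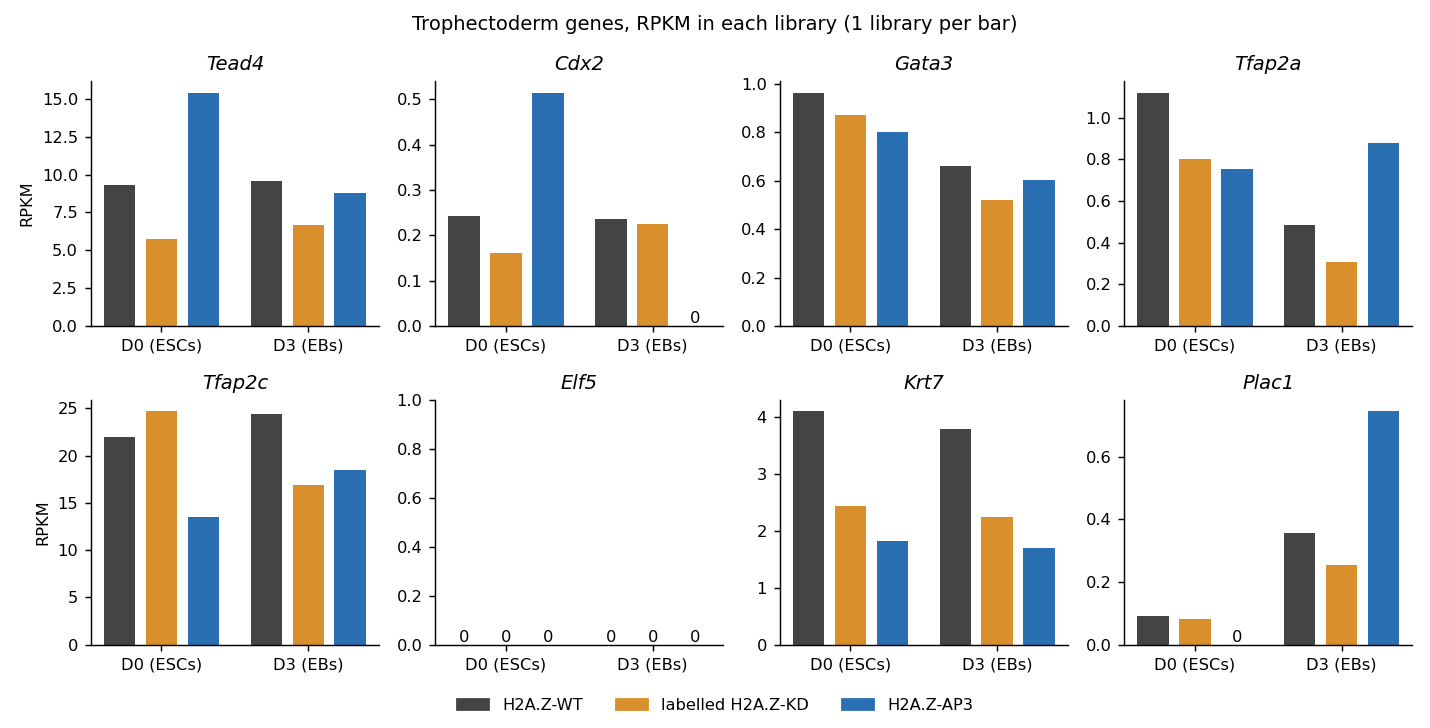
RPKM (vertical axis, from 0, scaled per gene) of the 8 trophectoderm genes in each library, at D0 (ESCs) and D3 (EBs), with 1 bar for 1 library and no error bar because there are no replicates. *Tead4* and *Cdx2* are highest in AP3 ESCs (15.4 and 0.515 RPKM), *Krt7* is highest in WT on both days (4.11 and 3.79 RPKM), and *Elf5* is at 0 in all 6 libraries.

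*Tead4* (chr6:128177161-128250831 in mm9, minus strand, 12 exons in the longest transcript) encodes the DNA-binding factor at the top of this network. In ESCs it was at 9.29 RPKM in WT, 5.72 in the KD-labelled library and 15.4 in AP3. In EBs it was at 9.60, 6.66 and 8.78 RPKM in the same order. The AP3 ESC library stood above the other 5, and both KD-labelled libraries stood below all others. At D0 the level in AP3 was 1.65-fold that in WT (log2 0.72, interval 0.52 to 0.93) and 2.68-fold that in the KD-labelled library (log2 1.42, interval 1.19 to 1.66). The KD-labelled library was lower than WT by 1.62-fold at D0 (log2 -0.70, interval -0.97 to -0.42). At D3 the difference of AP3 from WT was -0.13 and that of the KD-labelled library was -0.53 on the log2 scale, both within 1.5-fold. Between 192 and 744 reads lay behind these values.

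*Cdx2* (chr5:148112476-148118825, minus strand, 3 exons, 1 transcript), the caudal-type homeobox factor that specifies trophectoderm, was low in every library. It was at 0.243 RPKM in WT ESCs, 0.162 in ESCs labelled KD and 0.515 in AP3 ESCs, from about 9, 7 and 33 reads. In EBs it was at 0.237 RPKM in WT and 0.225 in the KD-labelled library, from about 11 and 14 reads, and it was listed at 0 in AP3. AP3 thus held both the highest and the lowest value. At D0 its level was 2.11-fold that of WT (log2 1.08, interval 0.04 to 2.38) and 3.17-fold that of the KD-labelled library (log2 1.66, interval 0.50 to 3.13). With a pseudocount of 1 the log2 differences were 0.28 and 0.38, and neither passed 1.5-fold.

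The ratio to the 0 of AP3 EBs depends on the pseudocount and is not printed, although it counts as past 1.5-fold lower. In this library 3 reads would give 0.0648 RPKM. Among the 447 entries that were between 0.15 and 0.6 RPKM in each of the other 5 libraries, *Cdx2* was the 1 entry listed at 0 in this library. The same count for the other libraries was 0 to 2 of 435 to 504 entries. The limits enclose the values of *Cdx2* in the other 5 libraries (0.162 to 0.515 RPKM), so *Cdx2* was in the set by construction. This count was not planned and does not test whether the 0 is unusual.

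In bulk samples fewer cells of a type and less RNA per cell cannot be told apart, so markers of other cell types are given beside *Tead4* and *Cdx2* at D0, where 25.0% of all entries and 13.9% of those at 1 RPKM passed 1.5-fold. Of 10 primitive and visceral endoderm markers, 7 were past 1.5-fold higher in AP3 than in WT ESCs, with summed levels of 50.6 against 17.8 RPKM, while *Afp* and *Ttr* were listed at 0 in both. Of 10 fibroblast markers, 6 were higher and 1 lower, with summed levels of 56.8 against 32.7 RPKM. Of 10 markers of the posterior streak and mesoderm, the other site of *Cdx2*, 4 were higher, all of them below 1 RPKM in both libraries and *Mesp1* with a 0 in WT, while neither of the 2 at 1 RPKM passed 1.5-fold. The summed levels were 6.04 against 5.22 RPKM and *Msgn1* was at 0 in all libraries. Their part in the values of *Tead4* and *Cdx2* was not tested.

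*Gata3* (chr2:9778705-9800227, minus strand, 6 exons in the longest transcript) encodes a zinc finger factor and is induced by TEAD4 in parallel to *Cdx2*. It was at 0.964, 0.872 and 0.803 RPKM in WT, KD-labelled and AP3 ESCs and at 0.660, 0.521 and 0.604 RPKM in the EBs. AP3 thus held its lowest ESC value and the highest ESC value of *Cdx2*. For AP3 against WT at D0 the counting intervals of *Gata3* (-1.51 to 0.97) and *Cdx2* (0.04 to 2.38) overlapped. All 3 ESC libraries were above all 3 EB libraries. No difference between lines passed 1.5-fold, the largest being log2 -0.34 (interval -1.93 to 1.08) between the KD-labelled library and WT at D3. With the median annotated transcript of 674 bases, about 8 to 15 reads lay behind each value. With the longest one, of 3215 bases, the number was 40 to 73.

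*Tfap2a* and *Tfap2c* encode AP-2 factors that bind the same motif, and their levels differed by more than 10-fold in each library. *Tfap2c* (chr2:172375093-172384119, plus strand, 7 exons) was at 22.0 RPKM in WT, 24.7 in KD-labelled and 13.5 in AP3 ESCs. In EBs it was at 24.4, 16.9 and 18.5 RPKM. AP3 ESCs held the lowest of the 6 values, 1.63-fold below WT (log2 -0.71, interval -0.83 to -0.58) and 1.83-fold below the KD-labelled library (log2 -0.87, interval -0.99 to -0.76). At D3 the differences from WT were log2 -0.40 for AP3 and -0.53 for the KD-labelled library, neither past 1.5-fold. With 1021 to 1335 reads per library, the intervals of *Tfap2c* were the narrowest of these genes.

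Primordial germ cells are another site of *Tfap2c* expression, and germ cell markers are given beside it in AP3 ESCs. Of 7 such markers 4 (*Prdm1*, *Prdm14*, *Dppa3* and *Dnd1*) were past 1.5-fold lower than in WT, none was higher, beside 25.0% of all entries and 13.9% of those at 1 RPKM, and the summed level was 38.7 against 67.3 RPKM, with none of the 7 at 0 in both. In the KD-labelled library none of the 7 passed 1.5-fold at D0, beside 19.7% of all entries and 8.02% of those at 1 RPKM. The sum in that library was 62.7 RPKM. *Dppa3*, at 37.9 RPKM in WT and 16.6 RPKM in AP3 ESCs, was the largest single part of the sums of both. Levels of these markers in ESC libraries do not show that germ cells were present. The part of these markers in the level of *Tfap2c* was not tested.

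*Tfap2a* (chr13:40811044-40829192, minus strand, 7 exons) was at 1.12, 0.800 and 0.756 RPKM in the ESC libraries of WT, KD and AP3. In EBs it was at 0.483 RPKM in WT, 0.309 in the KD-labelled library and 0.880 in AP3. AP3 was the only line with an EB value above its ESC value. At D3 its level was 1.82-fold that of WT (log2 0.86, interval 0.20 to 1.63) and 2.85-fold that of the KD-labelled library (log2 1.51, interval 0.77 to 2.26). The KD-labelled library was 1.56-fold below WT at D3 (log2 -0.64), but the interval, -1.45 to 0.25, included 0. None of these differences passed 1.5-fold with a pseudocount of 1. About 24 to 61 reads lay behind each value. Of 10 markers of surface ectoderm and neural crest, the other sites of *Tfap2a*, 2 were higher and 1 was lower in AP3 than in WT EBs, beside 22.1% of all entries and 10.2% of those at 1 RPKM. Both higher ones, *Trp63* (0.0127 RPKM in AP3) and *Dlx5* (0.161), were listed at 0 in WT EBs, and none of the 3 markers at 1 RPKM passed 1.5-fold. The summed levels were 9.64 and 10.3 RPKM, while *Krt5* was listed at 0 in both.

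*Elf5* (chr2:103252255-103291143, plus strand), an ETS factor used to tell trophoblast stem cells from ESCs, was listed at 0 in all 6 libraries. A count of 3 reads would give 0.110 to 0.184 RPKM, so a level below this was not detectable at this depth. Of all entries, 2951 (13.6%) were at 0 in every library. Its relative *Elf3* was at 10.6, 14.2 and 11.7 RPKM in WT, KD-labelled and AP3 ESCs. The relatives *Elf1*, *Elf2* and *Elf4* were also above 1 RPKM in every library, at 4.36 to 5.90, 15.6 to 20.3 and 1.43 to 3.50 RPKM, and none of the 4 differed from WT by more than 1.5-fold on either day.

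*Krt7* (chr15:101242834-101258236, plus strand, 9 exons in the longest transcript) showed the same order of lines on both days. It was at 4.11 RPKM in WT, 2.44 in the KD-labelled library and 1.82 in AP3 at D0. The EB libraries gave 3.79, 2.25 and 1.70 RPKM in turn. Both WT libraries stood above the other 4. The level in AP3 was 2.26-fold below WT at D0 (log2 -1.18, interval -1.87 to -0.54) and 2.23-fold below at D3 (log2 -1.15, interval -1.92 to -0.44). The KD-labelled library was 1.68-fold below WT on each day (log2 -0.75, interval -1.44 to -0.08 at D0 and -1.39 to -0.15 at D3), but with a pseudocount of 1 these differences were -0.57 and -0.56 and did not pass 1.5-fold. AP3 and the KD-labelled library differed by less than 1.5-fold on both days. The reads behind these values numbered 24 to 52 with the median annotated transcript of 690 bases and 143 to 308 with the longest one of 4094 bases. Of the distinct 36-base stretches of *Krt7* transcripts, 0.892% also occur in transcripts of other genes.

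The other simple epithelial keratins, which form the same type of filament, were also lower than in WT at D0. *Krt8* was at 31.1 RPKM in WT, 17.5 in KD-labelled and 18.5 in AP3 ESCs, and *Krt18*, its usual partner, was at 34.6, 15.1 and 14.4 RPKM. *Krt19* was at 4.85, 3.20 and 3.18 RPKM. All 3 passed 1.5-fold in both libraries compared to WT. In EBs labelled KD these keratins parted from *Krt7*: the differences of *Krt8*, *Krt18* and *Krt19* from WT were log2 0.43, 0.09 and 0.41, whereas *Krt7* was at -0.75. Endoderm, which also expresses these 3 keratins, had 8 of its 10 markers past 1.5-fold higher and none lower in KD-labelled than in WT EBs, with summed levels of 210 against 82.8 RPKM and none of the markers at 0 in either. Over all entries 20.7% passed in this comparison, and 8.59% of those at 1 RPKM. In AP3 ESCs, where these 3 keratins were lower than in WT, 7 of the 10 endoderm markers were higher and none was lower. The summed levels were 50.6 against 17.8 RPKM, and 25.0% of all entries passed in that comparison. The part of endoderm in the keratin values was not tested. In AP3 EBs the differences of *Krt8*, *Krt18* and *Krt19* were -0.26, -0.79 and -0.14, and *Krt7* was at -1.15. There *Krt18* was past 1.5-fold lower, as *Krt7* was. In a list of 10 genes of simple epithelium, made of these 3 keratins and 7 mostly junctional genes, the keratins were the 3 past 1.5-fold against WT at D0 in either line, all lower, beside 13.9% and 8.02% of entries at 1 RPKM. In EBs 2 of the 10 were lower in AP3 and none was higher, and 2 were higher and 2 lower in the KD-labelled library. The shares of entries at 1 RPKM were 10.2% and 8.59% in these comparisons. The genes with the highest levels, *Epcam* (72.9 to 114 RPKM), *Cdh1* (79.1 to 104), *Cldn4* (43.7 to 70.1) and *Cldn6* (21.6 to 105), encode adhesion and tight junction proteins that ESCs also express.

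**Figure D3:**
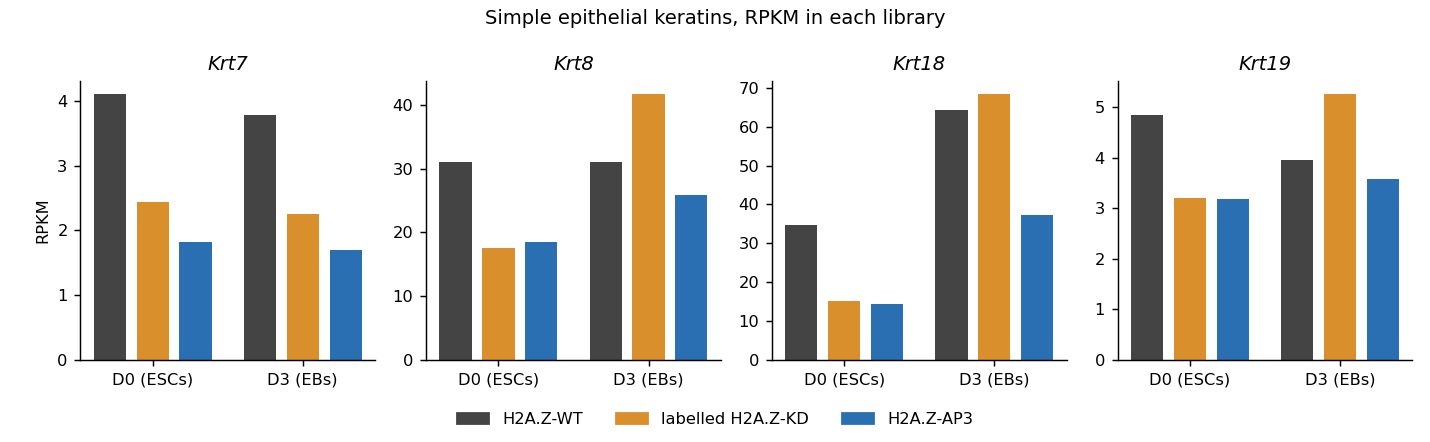
RPKM (vertical axis, from 0, scaled per gene) of *Krt7*, *Krt8*, *Krt18* and *Krt19* in each library, with 1 bar for 1 library. At D0 the WT bar is the tallest for all 4 keratins, and at D3 it is the tallest for *Krt7* (3.79 RPKM), while the KD-labelled library is the tallest for the other 3.

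*Plac1* (chrX:50423179-50467582, minus strand, 3 exons) was close to the limit of detection in ESCs, with 0.0901 RPKM in WT and 0.0822 in the KD-labelled library, about 2 reads each, and it was listed at 0 in AP3. In EBs it was at 0.357, 0.255 and 0.745 RPKM, from about 7, 7 and 16 reads. Each EB library stood above all 3 ESC libraries, and AP3 held the highest value. At D3 AP3 was 2.09-fold above WT (log2 1.06, interval -0.21 to 2.67) and 2.93-fold above the KD-labelled library (log2 1.55, interval 0.21 to 3.10). The first of these intervals included 0, and neither difference passed 1.5-fold with a pseudocount of 1. In AP3 ESCs 3 reads would give 0.102 RPKM, which is above the values listed in the other ESC libraries.

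Set against WT at D0, 5 of the 8 genes were past 1.5-fold in AP3, with *Tead4* and *Cdx2* higher and *Tfap2c*, *Krt7* and *Plac1* lower, and the background was 25.0% of all entries. Of the 4 genes at 1 RPKM or more in at least 1 of both libraries, 3 were past it, against 13.9% of entries at that level. The median log2 change was -0.42 over the 8 genes and 0.00 over all entries. The call of *Plac1* sets 0 against about 2 reads and rests on the pseudocount, and without the genes listed at 0 in either library 4 of 6 genes were past 1.5-fold. In the KD-labelled library 2 genes, *Tead4* and *Krt7*, were lower and none was higher, the background being 19.7%, or 8.02% at 1 RPKM, where the same 2 genes were past it among 4. The median of the 8 genes was -0.32.

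At D3 the genes past 1.5-fold in AP3 against WT were 4, with *Tfap2a* and *Plac1* higher and *Cdx2* and *Krt7* lower, and 22.1% of entries did so (10.2% at 1 RPKM, where *Krt7* was the 1 of 3). The median was -0.13. Without the genes listed at 0, which takes out *Cdx2*, 3 of 6 genes were past it. *Krt7* was the 1 gene of the 8 past 1.5-fold lower in AP3 on both days. For the KD-labelled library 2 genes, *Tfap2a* and *Krt7*, were lower, against 20.7% of entries (8.59% at 1 RPKM, with 1 of 3 genes). The share of members was close to the background over all entries in both KD-labelled libraries.

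Between AP3 and the KD-labelled library, 4 genes passed 1.5-fold at D0 (*Tead4* and *Cdx2* higher, *Tfap2c* and *Plac1* lower), with a background of 27.0% over all entries and 18.4% at 1 RPKM, where 2 of 3 genes passed. At D3 3 genes passed (*Tfap2a* and *Plac1* higher, *Cdx2* lower), with a background of 22.7%. None of the 3 genes at 1 RPKM did so, against 11.3% of entries. Without the genes listed at 0 the counts were 3 of 6 at D0 and 2 of 6 at D3. Over all 9 comparisons, 17 of the 28 changes past 1.5-fold came from genes below 1 RPKM in both libraries.

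**Figure D4:**
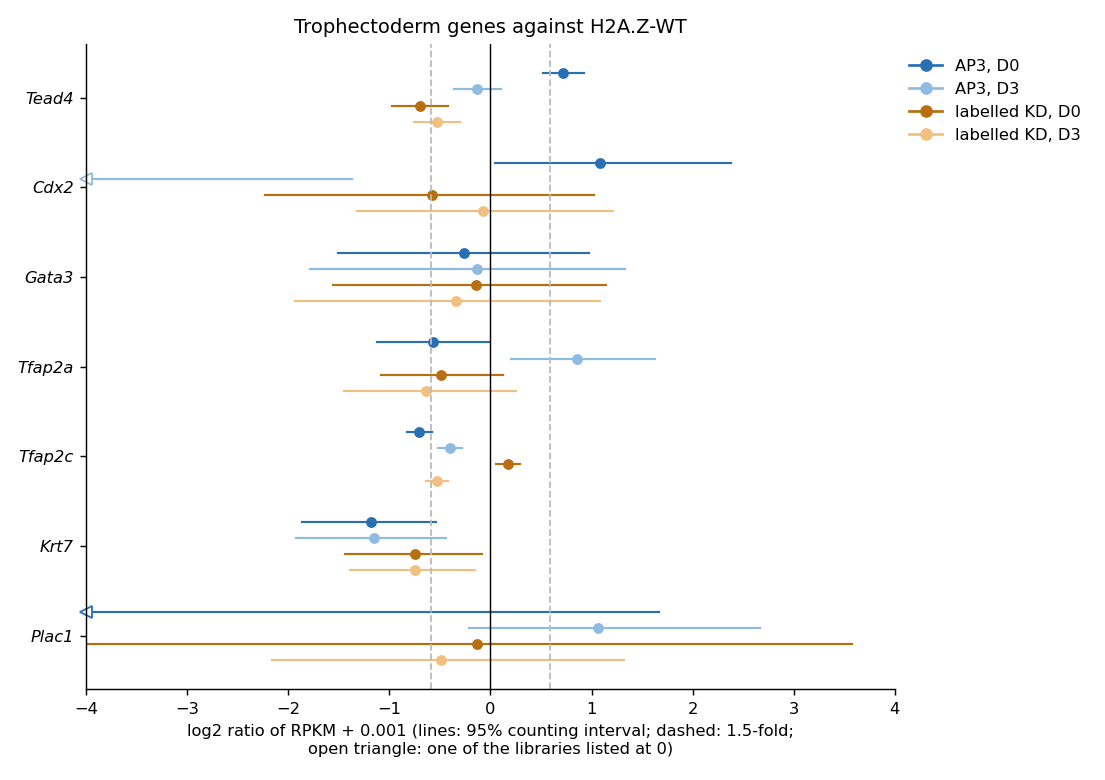
Log2 ratio of each trophectoderm gene to WT of the same day (horizontal axis), for AP3 (blue) and the KD-labelled libraries (orange), at D0 (dark) and D3 (light); lines are 95% counting intervals, dashed lines mark 1.5-fold, and open triangles at the edge mark a ratio with a library listed at 0. *Krt7* lies left of the dashed line in all 4 comparisons at the pseudocount of 0.001 (-1.18, -1.15, -0.75 and -0.75), and *Tead4* at D0 lies to the right for AP3 (0.72) and to the left for the KD-labelled library (-0.70). *Elf5*, at 0 throughout, is not drawn.

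The change from ESCs to EBs was compared in each line. *Tead4* differed little between D0 and D3 in WT (log2 0.05, interval -0.19 to 0.29) and in the KD-labelled libraries (0.22, interval -0.05 to 0.49). In AP3 it was 1.75-fold lower in EBs (log2 -0.81), and the interval of this ratio ran from 0.499 to 0.654 of the ESC level. *Tfap2a* was lower in EBs by 2.33-fold in WT (-1.22, interval -1.96 to -0.54) and by 2.59-fold in the KD-labelled libraries (-1.37, interval -2.14 to -0.61), and in AP3 it stood at 0.22 (interval -0.33 to 0.79). *Krt7* differed by log2 -0.12, -0.12 and -0.09, so its values differed more between lines than between days in these libraries.

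*Plac1* was higher in EBs by log2 1.97 in WT and 1.62 in the KD-labelled libraries, but both intervals (-0.82 to 4.87 and -1.04 to 4.66) included 0. In AP3 it went from 0 to 0.745 RPKM. *Gata3* was lower in EBs by log2 -0.55, -0.74 and -0.41, of which the value for the KD-labelled libraries passed 1.5-fold, and its interval (-2.19 to 0.67) included 0 with the median transcript length but not with the longest (-1.34 to -0.14). *Tfap2c* differed by 0.15, -0.55 and 0.45, all within 1.5-fold.

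The genes past 1.5-fold between D0 and D3 were 2 in WT (*Plac1* higher, *Tfap2a* lower), 3 in the KD-labelled libraries (*Plac1* higher, *Gata3* and *Tfap2a* lower) and 3 in AP3 (*Plac1* higher, *Tead4* and *Cdx2* lower). Over all entries the shares were 30.7%, 30.2% and 31.0%. Among genes at 1 RPKM, 1 of 4, 0 of 3 and 1 of 3 passed, against 23.0%, 22.3% and 24.3% of entries. The medians of the 8 genes were -0.02, -0.06 and -0.05, beside 0.00 over all entries, and the shares lay near the background. In AP3 the calls of *Plac1* and *Cdx2* involve a 0, and without such genes 1 of 5 passed.

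**Figure D5:**
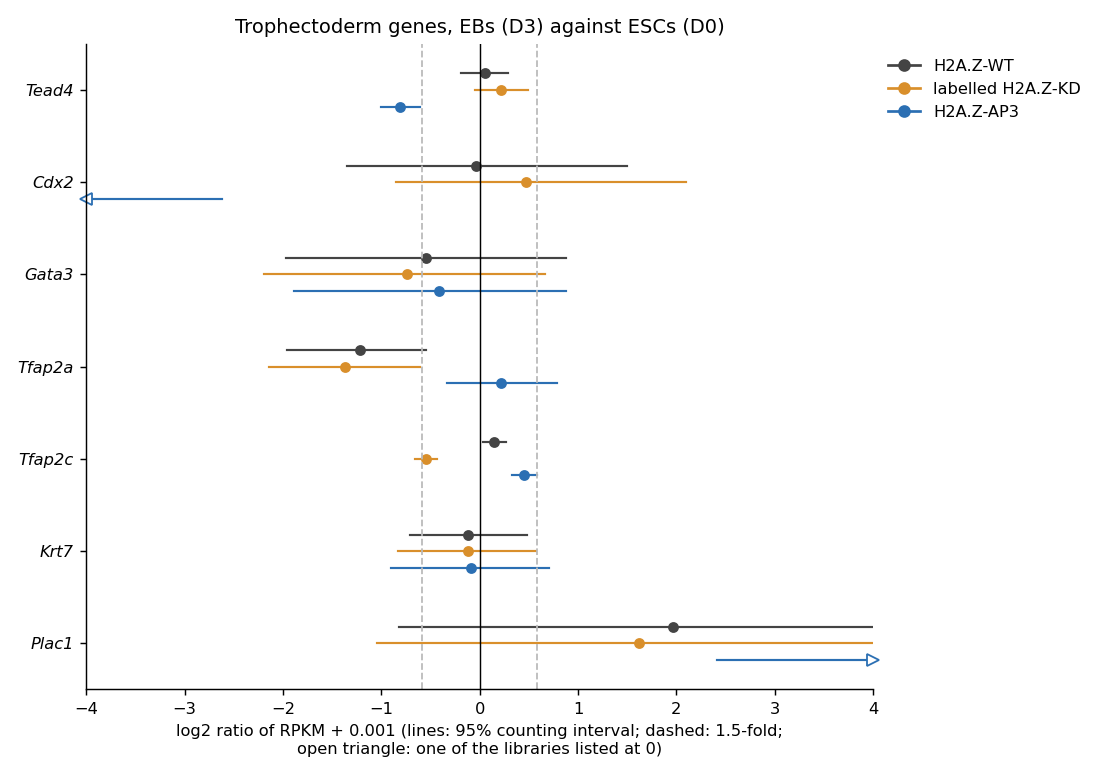
Log2 ratio of EBs (D3) to ESCs (D0) for each trophectoderm gene (horizontal axis) in WT (grey), the KD-labelled libraries (orange) and AP3 (blue), with 95% counting intervals, dashed lines at 1.5-fold and open triangles where a library is listed at 0. *Tead4* is left of the dashed line in AP3 (-0.81) and close to 0 in WT (0.05), while *Tfap2a* is left of it in WT (-1.22) and in the KD-labelled libraries (-1.37) and at 0.22 in AP3.

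Partners and regulators of TEAD4 were described as well. Of 16 genes of the Hippo pathway and the TEAD family, 2 (*Amot* and *Amotl1*, named after their values were seen) were past 1.5-fold higher in AP3 than in WT ESCs and none was lower, with a median of -0.03. In the KD-labelled library 1 (*Vgll4*, likewise) was lower. At 1 RPKM the share over all entries was 13.9% and 8.02% in these comparisons, so both counts lay near the background. The paralog *Tead2* was at 42.3, 48.1 and 53.1 RPKM in WT, KD-labelled and AP3 ESCs, above *Tead4* in each library, and the coactivator *Yap1* was at 40.1, 43.1 and 36.7 RPKM. From D0 to D3, 6, 5 and 7 of the 16 genes were lower in WT, KD-labelled and AP3 cells, and 1 was higher in each, beside 23.0%, 22.3% and 24.3% of entries at 1 RPKM that passed in either direction. The TEAD target genes *Cyr61* and *Ctgf* were among the lower ones in all 3 lines, by log2 -3.57, -2.91 and -2.70 and by -2.14, -1.76 and -1.68. Fibroblast markers were lower at D3 too, 6, 8 and 7 of 10 in WT, KD-labelled and AP3 cells (median log2 -1.85, -3.01 and -2.11), with summed levels of 29.1 to 56.8 RPKM at D0 and 16.8 to 20.2 RPKM at D3, although *Thy1* was higher in each line and *Pdgfra* in the KD-labelled libraries (log2 1.39). Endoderm markers were higher, 10, 10 and 7 of 10, with sums of 17.8 to 50.6 RPKM at D0 and 82.8 to 210 RPKM at D3. The shares over all entries were 30.7%, 30.2% and 31.0%. Their part in the values of *Cyr61* and *Ctgf* was not tested.

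Of 18 paralogs of the members, 5 were higher and 5 lower in AP3 than in WT ESCs, and 4 were higher and 3 lower in the KD-labelled library, beside 25.0% and 19.7% of all entries. In EBs 4 were higher and 3 lower in AP3, and 6 were higher and 1 lower in the KD-labelled library, beside 22.1% and 20.7%. Of the 9 at 1 RPKM in the latter comparison, 2 were higher and 0 lower. Paralogs of *Cdx2* and *Gata3* that reached 1 RPKM were compared with these 2 genes. *Cdx1* was at 2.79, 2.02 and 3.24 RPKM in WT, KD-labelled and AP3 ESCs and at 0.540, 0.225 and 0.249 RPKM in EBs, and so it was above *Cdx2* in ESCs. *Gata2*, a trophoblast factor related to *Gata3*, was at 2.18, 2.00 and 2.55 RPKM in ESCs and at 0.397, 0.447 and 1.58 RPKM in EBs, where the AP3 value exceeded that of WT by log2 1.99. It was above *Gata3* in all ESC libraries and in AP3 EBs, and below it in the other EBs. *Cdx4*, *Gata1* and *Gata5* stayed under 1 RPKM. *Gata4* and *Gata6*, factors of primitive endoderm, were higher in AP3 than in WT ESCs by log2 1.90 and 1.73, against -0.26 for *Gata3*.

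Of 19 further genes of trophoblast stem cells, 1 was higher and 5 were lower in AP3 than in WT ESCs (median -0.20), and none was higher and 4 were lower in the KD-labelled library (median 0.00), beside 25.0% and 19.7% of all entries. Among those with the highest levels, *Zfp42*, *Esrrb* and *Cdh3* are also expressed in ESCs and differed from WT by log2 -0.06, -0.06 and 0.33 in AP3 ESCs. In EBs 2 were higher and 2 lower in AP3, and 2 were higher and 4 lower in the KD-labelled library, beside 22.1% and 20.7% of all entries. From D0 to D3, 10, 10 and 7 of the 19 were lower and 2, 3 and 2 were higher in WT, KD-labelled and AP3 cells, beside 30.7%, 30.2% and 31.0% of all entries.

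Of 20 genes of the placenta and differentiated trophoblast, 5 were higher and 6 lower in AP3 than in WT ESCs, and 9 were higher and 3 lower in EBs, beside 25.0% and 22.1% of all entries. Among those at 1 RPKM, 1 of 7 was higher and 2 lower in ESCs, and 2 of 6 were higher and 1 lower in EBs. The shares of entries at 1 RPKM were 13.9% and 10.2%. In the KD-labelled library 2 of the 20 were higher and 6 lower on each day, beside 19.7% and 20.7% of all entries. Most of them were close to 0, and only 7 reached 1 RPKM anywhere. *Tpbpb* and *Prl3b1* were at 0 in every library. The highest were *Peg10* (83.5, 65.8 and 48.7 RPKM in the ESC libraries of WT, KD and AP3), *Car4*, *Phlda2* and *Prl2c2*. In WT, KD-labelled and AP3 EBs *Prl2c2* was at 1.22, 0.495 and 2.38 RPKM, highest in AP3. *Car4* was at 64.1, 76.8 and 42.8 RPKM in the same libraries, lowest in AP3.

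Pluripotency genes that oppose the trophectoderm fate were described beside them, and 9 were found. *Pou5f1*, which CDX2 represses, was at 421, 413 and 540 RPKM in WT, KD-labelled and AP3 ESCs, so its level was highest in the library in which *Cdx2* and *Tead4* were highest. *Sox2* and *Klf4* were past 1.5-fold lower in AP3 ESCs, by log2 -0.80 and -0.88 compared to WT, and none of the 9 was higher, a share close to the 25.0% of all entries (13.9% at 1 RPKM, which all 9 reached). In the KD-labelled library none of the 9 passed 1.5-fold at D0, beside 19.7% of all entries and 8.02% of those at 1 RPKM. At D3 *Tbx3* and *Tcl1* were lower in AP3 and *Tcl1* in the KD-labelled library, and none was higher. The shares were 22.1% and 20.7% of all entries, and 10.2% and 8.59% of those at 1 RPKM.

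For *Tead4*, *Tfap2c* and *Krt7*, whose means reached 1 RPKM, the genes with the most similar pattern over the 6 libraries were found by Pearson's r of log2(RPKM + 0.1) among 11751 genes. For *Tead4* these were *Pdss2* (r = 0.995), *Hdac7* (0.991) and *Gstz1* (0.983). *Hdac7*, a histone deacetylase, was at 4.76, 3.66 and 6.97 RPKM in WT, KD-labelled and AP3 ESCs. For *Tfap2c* they were the entry of *Tmsb15b1*, *Tmsb15b2* and *Tmsb15l* (0.991), *Serp2* (0.987) and *Dnmt1* (0.984), the maintenance DNA methyltransferase, which was at 55.5, 55.8 and 46.2 RPKM in these libraries. For *Krt7* they were *Gm14139* (0.990), *C030039L03Rik* (0.990) and *Rab3gap1* (0.989). These are descriptions of 6 points that share the lines, the days and the libraries, and 124, 84 and 62 genes had an r above 0.9 with *Tead4*, *Tfap2c* and *Krt7*.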

How the data were processed

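Libraries of oligo(dT)-selected RNA were prepared by the authors with an Illumina TruSeq kit and read from one end. Alignment to mm9 used TopHat (version 1.14 per the submitters' processing notes) with Bowtie 0.12.7. RPKM values per gene were computed by the authors with Cufflinks 1.3.0 and deposited for 6 libraries, together with 6 columns of their own log2 comparisons, which were not used. Of the table's entries, 420 share a symbol with another.

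Transcript lengths and positions came from the GENCODE annotation of mm9, and promoter windows from RefSeq. Levels and log2 ratios with a pseudocount of 0.001 were computed without a filter in Python 3.11.15 (numpy 2.4.6, pandas 2.3.3, scipy 1.17.1), and figures were drawn with matplotlib 3.10.9. With 1 library per condition no test was made. The table gives no depth, so it was estimated from the steps between the lowest RPKM values of 3696 genes with 1 transcript over 1.5 kb. The estimator was changed after a previous version gave an implausible depth for the AP3 library at D0. The calls and intervals were tested on simulated data, in which, for AP3 against WT at D0, unchanged genes below 1 RPKM were called past 1.5-fold far more often than those above it, so calls of such genes are weak. Reads behind a value are RPKM times transcript length times depth, with exact Poisson intervals, and intervals of ratios are exact conditional binomial.

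The members and gene lists were chosen with earlier results of these data known. Each member is named with all values, from each list at most 4 genes with the highest mean, and paralogs that reached 1 RPKM. Cell type markers, and list genes named because they passed 1.5-fold or were at 0, were picked after their values were seen. A gene of the trophoblast stem cell list that this rule names is not reported here. Pluripotency and ESC lists each held *Nanog*, which is not analysed here. Alternatives were pseudocounts of 0.1 and 1, a minimum of 1 RPKM, centring on the median ratio, summing entries of a symbol, and the longest transcript. Leaving out genes listed at 0 was added after seeing the data. Protein sequences were not used here.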

Additional observations from a re-analysis of the deposited data

Results flagged for a closer look

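Some genes differed from a reference library in opposite directions in 2 contrasts. With 1 library per condition none of these differences was tested. At D0 *Tead4* was higher than in WT in AP3 (log2 0.72) and lower in the KD-labelled library (-0.70). At D3 *Tfap2a* was higher than in WT in AP3 (0.86) and lower in the KD-labelled library (-0.64, with a counting interval that includes 0).

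*Cdx2* was higher in AP3 at D0, by log2 1.08 against WT and 1.66 against the KD-labelled library. At D3 it was listed at 0 in AP3, beside 0.237 RPKM in WT and 0.225 RPKM in the KD-labelled library. *Plac1* went the other way. It was listed at 0 in AP3 at D0, beside 0.0901 RPKM in WT and 0.0822 RPKM in the KD-labelled library. At D3 it was higher in AP3 by 1.06 and 1.55. About 2 reads lay behind each of the WT and KD-labelled ESC values of *Plac1*, which is under the 3 reads taken as the limit of detection.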

How the results depend on the processing

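No value reversed under any alternative run. Of the 28 changes past 1.5-fold among 72, a pseudocount of 0.1 kept 27, and the 1 lost was *Tfap2a* in the KD-labelled library at D3. A pseudocount of 1 kept 10, and the 18 lost were all those of *Plac1* except from D0 to D3 in AP3, all those of *Tfap2a* and *Gata3*, those of *Cdx2* except from D0 to D3 in AP3, and those of *Krt7* in the KD-labelled libraries on both days. Centring kept 28 and added *Gata3* from D0 to D3 in WT and *Tfap2c* from D0 to D3 in the KD-labelled libraries, and summing entries kept 28. A minimum of 1 RPKM left 30 values and kept the 11 changes past 1.5-fold among them, by construction. The number of genes past 1.5-fold in AP3 against WT was 3 at D0 and 1 at D3 under both the pseudocount of 1 and the minimum, in place of 5 and 4. Against the KD-labelled library, 2 and 0 genes were past it under both in place of 4 and 3. For the KD-labelled libraries against WT the number was 1 at D0 under the pseudocount of 1. At D3 it was 1 under the pseudocount of 0.1, 0 under the pseudocount of 1 and 1 under the minimum. From D0 to D3 it was 0 and 1 in WT under the pseudocount of 1 and the minimum, 0 and 0 in the KD-labelled libraries, and 1 in AP3 under the minimum. Genes below 1 RPKM thus carry most of the counts, and 31 of the 48 values rest on at least 10 estimated reads, or 34 with the longest transcript. Leaving out genes listed at 0 in either library, chosen after seeing the data, kept 22 of the 28, and the number from D0 to D3 in AP3 was 1 in place of 3. No replicates could be paired, since each condition has 1 library, and a fit of day across the lines was not run. Differences between cultures of a condition were not measured.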
